A study of Mus musculus with 10 samples.

Results

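The 37 genes described here encode the machinery of autophagy, and all 37 were measured, among 19938 genes in all. A gene was taken from the rows of the deposited value table whose platform entry names exactly 1 symbol, and a gene with several probe sets was represented by the one with the highest mean over the 10 arrays. RNA came from the forebrains of 10 mouse embryos at E12.5 on a CD1/NMRI mixed background, each hybridised to its own whole-transcript Affymetrix array. The titles name 5 embryos dtg, which the labels also call transgenic, and 5 stg, which they call control. In the transgenic mice a constitutively active allele of FoxO3, a transcription factor kept out of the nucleus when insulin signals, is driven by the CaMKIIa promoter, which the design text calls forebrain-specific. The labels neither spell out dtg and stg nor say which transgene a control carries. They do not say which of the 2 dams bore which embryo, so group and litter cannot be told apart. The question addressed here is whether transcripts of the autophagy machinery differ between dtg and stg forebrains.

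Autophagy is the pathway by which a cell encloses part of its cytoplasm in a double membrane, the autophagosome, and delivers it to the lysosome for breakdown. The ULK kinase complex starts the process, a lipid kinase complex marks the membrane, and a conjugation system related to ubiquitination couples small Atg8 proteins, LC3 and GABARAP, to the growing membrane. Cargo receptors bind these proteins and the material to be removed. Neural cells depend on this clearance, and FoxO3 is known from muscle as an activator of several of these genes.

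No member of the list passed the test over all genes. The members with the smallest p-values were Map1lc3b, which encodes an LC3 protein, at 0.19 higher in dtg forebrains on the log2 scale, and the cargo receptor gene Sqstm1, at 0.15 higher. In limma, with Benjamini-Hochberg adjustment over all genes, 0 of 37 members had an adjusted p below 0.05, against 0.105% of all genes. At an unadjusted p below 0.05 there were 2 members, Map1lc3b and Sqstm1, both higher in dtg, which is 5.41% of the list, against 7.58% of all genes in either direction and 4.1% higher in dtg. In 0 of 37 members did the groups fail to overlap, against 1.6% of all genes. A share this near the background is not a result about the list.

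The differences were small and mostly to the higher side. In dtg forebrains 28 members were higher and 9 lower, without a test of each, beside 48.1% of all genes higher. The median member difference was 0.046 on the log2 scale, and the median over all genes was -0.0038. With every array centred on its median, which lowers the difference of every gene by the same small amount, 23 of 37 members and 42.4% of all genes were higher, with medians of 0.033 and -0.017. The median of the members rests in part on control embryo 5, without which 26 members were higher and the median was 0.019. The differences ran from -0.082 in Bnip3 to 0.32 in Gabarapl1. The 95% intervals of 36 members lay within a 1.5-fold change in either direction, as did those of 19066 of all 19938 genes, and the exception among the members was Gabarapl1. A missed threshold does not show equal levels.

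**Figure D1:**
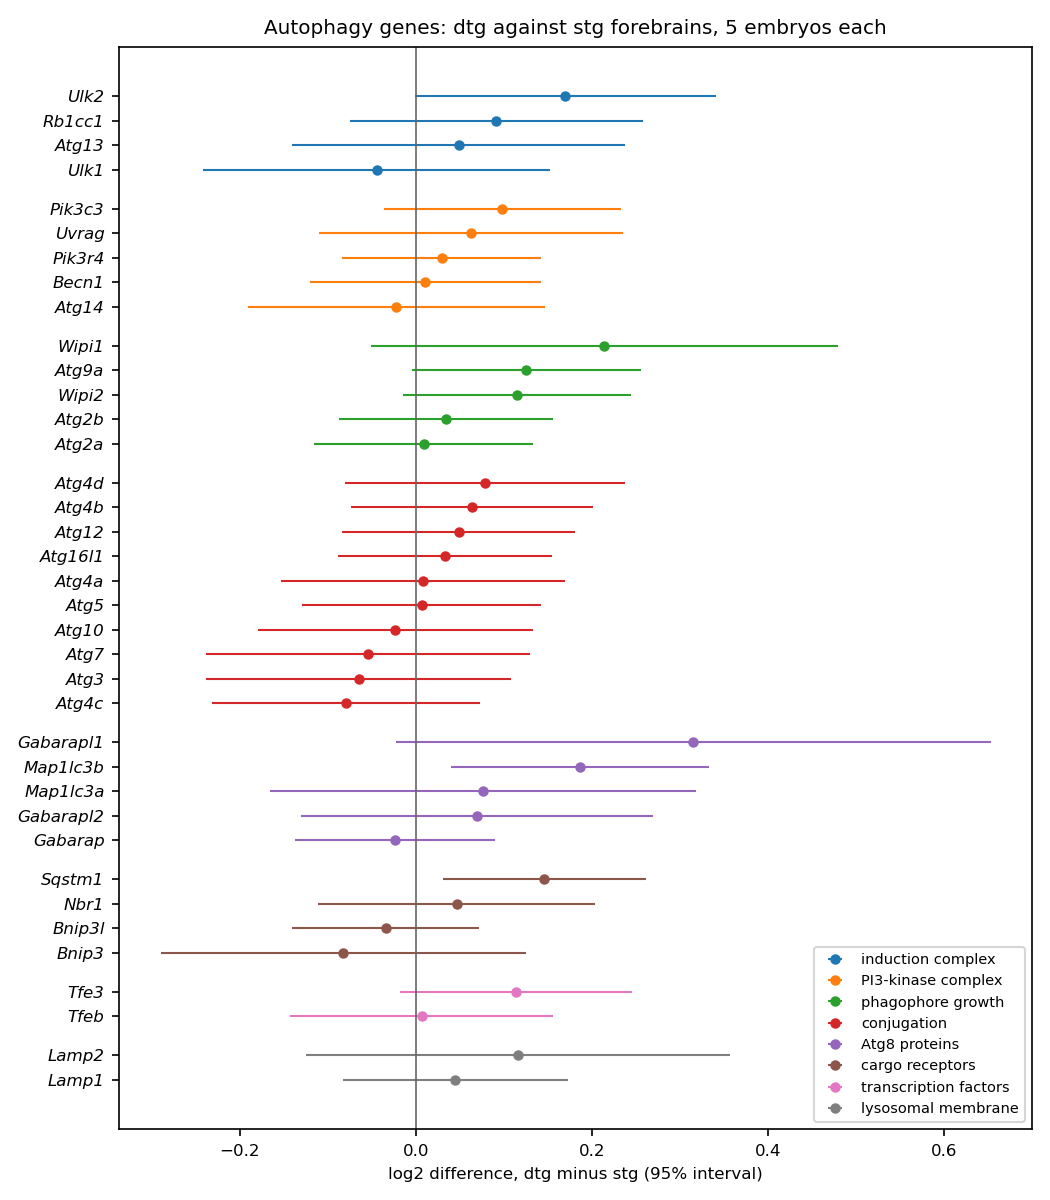
The log2 difference between dtg and stg forebrains (x axis) is plotted for each of the 37 genes (y axis), grouped by role, with points for the difference and bars for its 95% interval from limma, n = 5 per group. The intervals of Map1lc3b and Sqstm1 lie above 0, Ulk2 just reaches it, and all other intervals include 0.

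Several facts about the arrays touch these values. Array medians lay between 5.36 and 5.39 log2 units, and arrays correlated with each other across genes at 0.98 to 0.996. Control embryo 5 had the lowest mean correlation with the others, 0.985, against at least 0.992 elsewhere. Its pan-neuronal marker mean was 7.45, against 8.46 to 8.76 in the other controls and 8.44 to 9.03 in dtg embryos. All 15 pan-neuronal genes read higher in dtg, with a median of 0.36, or 0.12 without control embryo 5. Its mesenchyme mean was 8.19, above the range of 6.15 to 7.11 over all other embryos. Of 10 mesenchyme genes 3 read higher in dtg, with a median of -0.068. Without control embryo 5 these were 9 and 0.27. The thalamus and diencephalon mean ran from 6.66 to 7.59 in dtg and from 5.72 to 7.11 in stg, and 8 of its 9 genes read higher in dtg. Its median difference was 0.79, or 0.69 without control embryo 5. At an unadjusted limma p below 0.05 there were 6 of 9 genes (0 of 15 pan-neuronal genes), against 7.58% of all genes. In 2 of the 9 the groups did not overlap, against 1.6% of all genes. Radial glia and progenitor means overlapped, at 8.82 to 8.98 in dtg and 8.91 to 8.99 in stg, with 5 of 12 genes higher in dtg. Microglial and macrophage means overlapped too, at 4.99 to 5.12 and 4.82 to 5.12. Of these 10 genes 9 read higher in dtg, with a median of 0.071, or 0.11 without control embryo 5. Erythroid means were 6.79 to 7.65 in dtg and 6.86 to 8.13 in stg, and endothelial means 6.09 to 6.46 and 6.12 to 6.69. Of 7 erythroid genes 0 read higher in dtg, with a median of -0.20, and of 10 endothelial genes 2, with a median of -0.067. Control embryo 5 had the highest mean of both lists. Without it these were 2 genes and -0.049 for erythroid, and 6 genes and 0.028 for endothelial. None of these markers had a mean below the arrays' lower quartile. Fewer cells of a type and less RNA per cell cannot be told apart in such tissue samples, and the part of cell makeup in the member differences was examined only through the fits with marker means given below.

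The transcript of the driven gene read higher in dtg, without passing over all genes. Foxo3 had log2 values of 6.95, 7.13, 7.10, 6.76 and 6.96 in dtg embryos 1 to 5 and 6.50, 6.61, 6.59, 6.65 and 6.87 in stg embryos 1 to 5. The difference was 0.34 ± 0.085 (SE), with an adjusted p of 0.218 in limma. Whether the probes cover the transgene is not known.

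The Atg8 proteins are the ubiquitin-like proteins that are attached to the autophagosome membrane. Map1lc3b, the LC3 form most used to follow autophagosomes, read 7.88, 7.67, 7.80, 7.71 and 7.77 in dtg embryos 1 to 5. In stg embryos 1 to 5 it read 7.55, 7.72, 7.52, 7.68 and 7.43. Dtg embryos 1, 3 and 5 lay above every control, and the other dtg embryos lay within the upper part of the control range. The group means were 7.77 ± 0.080 (SD, n = 5) and 7.58 ± 0.12, a 1.14-fold difference with an SE of 0.067 on the log2 scale (95% interval 0.040 to 0.33). Its adjusted p was 0.531 in limma, and its exact two-sided permutation p was 0.0397 (n = 5 per group), where the smallest p this design allows is 0.00794. Control embryo 5 was the lowest of all embryos, and without it the Map1lc3b difference was 0.15.

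Gabarapl1, a GABARAP protein gene that is prominent in brain, had the largest difference of the list and the widest spread. Its values were 7.75, 7.48, 7.62, 7.51 and 8.02 in dtg embryos and 7.64, 7.47, 7.19, 7.65 and 6.85 in stg embryos. Dtg embryos 1 and 5 exceeded every control, while control embryo 5 stood far below all others. The difference was 0.32 ± 0.15 (SE; 95% interval -0.022 to 0.65; limma adjusted p = 0.69; exact permutation p = 0.143). Without control embryo 5 it was 0.19, and with the pan-neuronal mean as a covariate it was 0.13, with an interval of -0.096 to 0.36. The pan-neuronal mean was likewise lowest in that embryo.

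The other Atg8 genes showed smaller differences. Map1lc3a, a second LC3 gene, read 6.58, 6.37, 6.39, 6.15 and 6.44 in dtg and 6.37, 6.13, 6.32, 6.66 and 6.06 in stg, a difference of 0.077 ± 0.11 (SE). Gabarap, the founding member of its subfamily, read 9.57, 9.53, 9.57, 9.50 and 9.57 in dtg and 9.64, 9.44, 9.57, 9.63 and 9.58 in stg, a difference of -0.024 ± 0.052. Gabarapl2 read 9.17, 9.03, 9.10, 9.28 and 9.31 in dtg and 9.15, 9.25, 8.92, 9.32 and 8.91 in stg, a difference of 0.069 ± 0.092. In all of these the dtg values lay inside the control range, and the limma adjusted p was 0.918, 0.951 and 0.908, with exact permutation p of 0.508, 0.571 and 0.508.

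Among the cargo receptors only Sqstm1 reached an unadjusted p below 0.05. Sqstm1 encodes p62, which binds ubiquitinated cargo and LC3 and is itself degraded by autophagy. It read 8.65, 8.62, 8.61, 8.46 and 8.62 in dtg embryos and 8.42, 8.41, 8.41, 8.49 and 8.51 in stg embryos. Dtg embryos 1, 2, 3 and 5 lay above every control, and dtg embryo 4 lay within the control range. The means were 8.59 ± 0.074 (SD, n = 5) and 8.45 ± 0.049, a 1.11-fold difference (95% interval 0.031 to 0.26 on the log2 scale). The limma adjusted p was 0.531, and the exact permutation p was 0.0238. At least 4 dtg embryos above every control was a pattern of 2 members, Sqstm1 and Atg9a, against 3.28% of all genes. Without dtg embryo 4 the Sqstm1 groups did not overlap, a pattern whose share of all genes was not counted in that fit. The Sqstm1 difference was then 0.18 (limma adjusted p = 0.293). It was 0.16 without control embryo 5 and 0.15 with the pan-neuronal mean as a covariate.

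The remaining receptors differed by less than their spread. Nbr1, which acts beside p62 on ubiquitinated cargo, differed by 0.046 ± 0.072 (SE). Bnip3 and Bnip3l, receptors on the outer membrane of mitochondria that respond to low oxygen, differed by -0.082 ± 0.095 and -0.034 ± 0.049. For Bnip3 the control range was 6.70 to 7.22, with embryo 5 at the top, and without that embryo the difference was 0.0088. Bnip3l values lay between 9.58 and 9.64 in dtg and between 9.63 and 9.77 in stg, again with control embryo 5 at the top.

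The induction complex senses nutrient state through the ULK kinases. Ulk2 read 7.87, 7.68, 7.99, 7.76 and 7.88 in dtg embryos and 7.79, 7.69, 7.64, 7.77 and 7.44 in stg embryos. Dtg embryos 1, 3 and 5 exceeded every control. The difference was 0.17 ± 0.079 (SE; limma adjusted p = 0.667; exact permutation p = 0.0794), and without control embryo 5, the lowest, it was 0.11. Ulk1, the better-known kinase of the pair, differed by -0.044 ± 0.090. Its partners Atg13 and Rb1cc1, the scaffold also called FIP200, differed by 0.049 ± 0.087 and 0.091 ± 0.076. The difference between Ulk2 and Ulk1 was not tested.

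The class III phosphoinositide 3-kinase complex makes the lipid that recruits later factors. Its catalytic subunit gene Pik3c3 differed by 0.098 ± 0.062 (SE), with values of 7.49 to 7.65 in dtg and 7.36 to 7.57 in stg. The regulatory subunit gene Pik3r4 differed by 0.030 ± 0.052 and Becn1, which encodes Beclin 1, by 0.010 ± 0.060. Atg14 and Uvrag encode subunits that direct the kinase to autophagosomes and to endosomes, and they differed by -0.022 ± 0.077 and 0.063 ± 0.079. Limma adjusted p-values in this complex ran from 0.783 to 0.983.

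The genes for growth of the enclosing membrane had the highest median of all role groups, 0.11, and all 5 were higher in dtg, Atg2a by less than the shift that median centring takes from every gene. Atg9a, which encodes a transmembrane scramblase carried on vesicles, read 6.75, 6.56, 6.61, 6.43 and 6.58 in dtg embryos and 6.48, 6.45, 6.46, 6.47 and 6.44 in stg embryos. The controls agreed within a narrow band (SD 0.015), with dtg embryos 1, 2, 3 and 5 above it and dtg embryo 4 below it. The Atg9a difference was 0.13 ± 0.060 (SE; limma adjusted p = 0.675; exact permutation p = 0.0476). Wipi2, which binds the lipid mark and recruits the conjugation machinery, read 7.20, 7.25, 7.17, 7.44 and 7.27 in dtg and 7.09, 7.14, 7.17, 7.16 and 7.21 in stg. Its difference was 0.11 ± 0.059 (limma adjusted p = 0.714; exact permutation p = 0.0397), and dtg embryos 2, 4 and 5 exceeded every control.

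Wipi1, a relative of Wipi2, went the other way in control embryo 5. It read 5.72, 5.84, 5.38, 5.51 and 5.42 in dtg embryos and 5.13, 5.30, 5.33, 5.29 and 5.77 in stg embryos. The difference was 0.21 ± 0.12 (SE; limma adjusted p = 0.753; exact permutation p = 0.151). Without control embryo 5 the groups did not overlap, and the share of all genes was not counted in that fit. The Wipi1 difference was then 0.32, with a limma adjusted p of 0.381. With the pan-neuronal mean as a covariate it was 0.34, with an adjusted p of 0.201, the smallest of any member in any fit tried. Atg2a and Atg2b, which encode lipid transfer proteins, differed by 0.0088 ± 0.057 and 0.034 ± 0.056.

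The conjugation genes differed little, in both directions. Of 10 genes 6 were higher and 4 lower, and the median was 0.0073. Atg7 and Atg3 and Atg10, the enzymes that activate and transfer the small proteins, differed by -0.054, -0.065 and -0.023. Atg12, Atg5 and Atg16l1, which form the complex that directs the last step, differed by 0.049, 0.0066 and 0.033. The proteases that trim and release Atg8 proteins differed by 0.0081 for Atg4a, 0.063 for Atg4b, -0.079 for Atg4c and 0.079 for Atg4d. Their SEs ran up to 0.084, that of Atg7, and limma adjusted p-values from 0.855 to 0.989.

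The transcription factors Tfeb and Tfe3 switch on lysosomal and autophagy genes when mTOR activity is low. Tfe3 read 6.46, 6.28, 6.41, 6.40 and 6.34 in dtg embryos and 6.31, 6.21, 6.16, 6.40 and 6.24 in stg embryos, a difference of 0.11 ± 0.060 (SE; limma adjusted p = 0.721; exact permutation p = 0.0714). Dtg embryos 1 and 3 exceeded every control. Tfeb differed by 0.0065 ± 0.069, and it was the only member below the 40th percentile of gene means. Lamp1 and Lamp2, the main glycoproteins of the lysosomal membrane, differed by 0.045 ± 0.059 and 0.12 ± 0.11. Lamp2 ran from 6.996 to 7.67 in controls, with embryo 2 lowest and embryo 5 highest, and without embryo 5 its difference was 0.20 (limma adjusted p = 0.728).

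**Figure D2:**
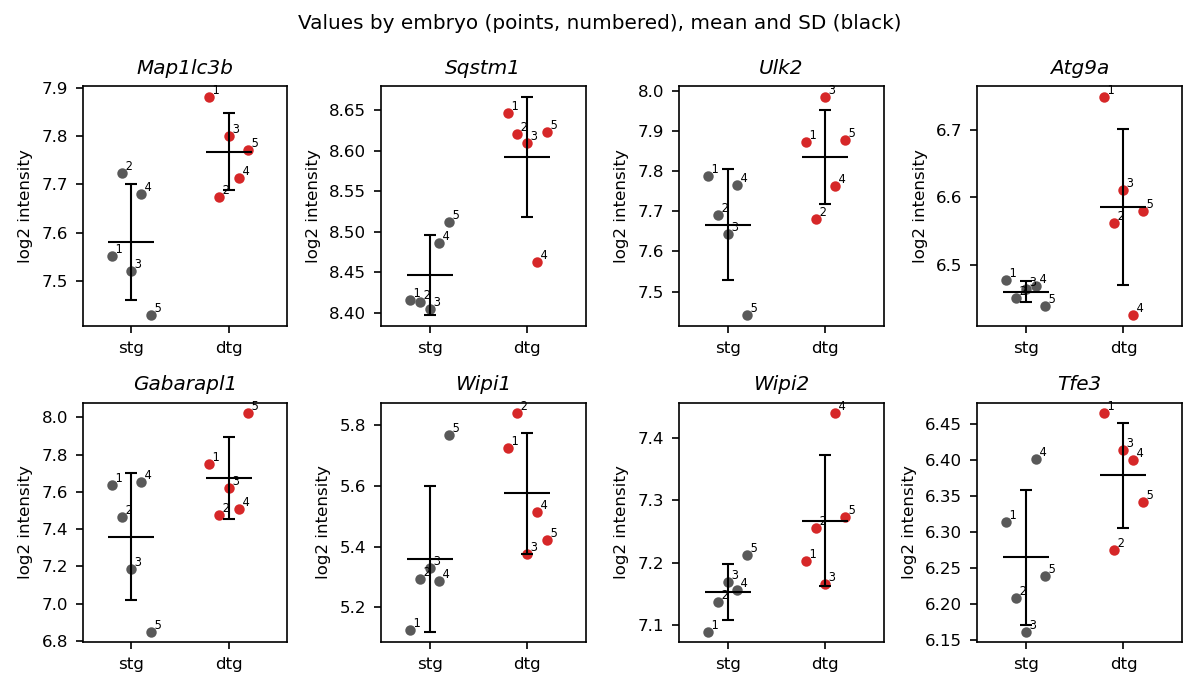
Log2 intensities (y axis, a separate scale for each gene) of 8 autophagy genes are plotted for stg and dtg embryos, with points numbered by embryo and black marks for the mean and SD, n = 5 per group. Dtg embryo 4 alone lies within or below the control values in Sqstm1 and Atg9a, and control embryo 5 is lowest in Map1lc3b, Ulk2 and Gabarapl1 and the highest control in Wipi1.

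Among the embryos, the members moved little as a body. Measured as the deviation of each gene from its mean over the 10 arrays, the median over members was 0.062, -0.0012, 0.0094, 0.0031 and 0.042 in dtg embryos 1 to 5. It was -0.010, -0.042, -0.038, 0.059 and -0.054 in stg embryos 1 to 5. Dtg embryo 1 was highest, but control embryo 4 came next to it, and the groups overlapped. Control embryo 5 held the lowest value of all 10 embryos in 15 members and the highest in 4, more extremes than any other embryo. Its lowest deviation was -0.67, in Gabarapl1, and its highest was 0.41, in Bnip3. The spread within groups was small, with a median SD of 0.11 over members and 0.12 over all genes.

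**Figure D3:**
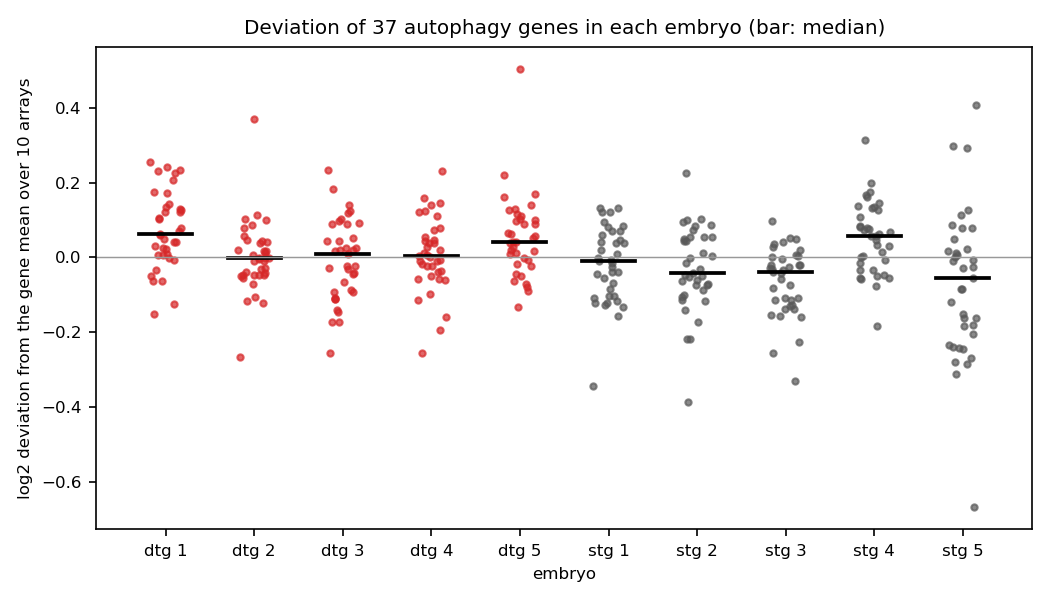
Each point is 1 of 37 autophagy genes, placed by its log2 deviation from its own mean over the 10 arrays (y axis) in each embryo (x axis), with bars for the median. The medians of dtg embryos (-0.0012 to 0.062) and stg embryos (-0.054 to 0.059) overlap, and the points of control embryo 5 spread most widely.

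The genes that FoxO3 is known to activate in muscle gave a similar picture. Of these 9 members 7 were higher and 2, Bnip3 and Bnip3l, lower, with a median of 0.063, and 0 passed over all genes. Map1lc3b, Gabarapl1 and Ulk2 had the largest differences, given above, followed by Pik3c3, Atg4b, Atg12 and Becn1. The list was chosen with earlier results of these data known and is a description only.

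Promoter sequences from RefSeq (GRCm38.p6, 250 bases before to 50 after the start) were held for 30 of the 37 members. Those without an entry were Rb1cc1, Becn1, Pik3c3, Atg12, Atg16l1, Map1lc3a and Bnip3l. The FOXO element GTAAACA, searched on both strands, occurred in 0 of 30 members and in 4.05% of 27025 genes. The E-box CACGTG, to which Tfeb and Tfe3 bind, occurred in 6 of 30 members (Atg14, Atg3, Atg5, Atg7, Bnip3 and Lamp1), and in 8.09% of all genes. The longer TCACGTGA, which contains the E-box, occurred in Atg3 and in 1.12% of all genes. These counts describe letters in a short window and say nothing of binding. They are not matched for base makeup. Over the 250 bases before the start, member promoters had a median GC content of 59.6%, against 52.4% in all promoters. The median number of CG pairs was 15 against 6, and the E-box holds such a pair while the FOXO element does not. None of the 6 E-box genes had an unadjusted p below 0.05. Shown are the 250 bases before the start for the members with the smallest p-values, Map1lc3b (chr8:121590188-121590437, plus strand) and Sqstm1 (chr11:50210821-50211070, minus strand), and for Atg3 (chr16:45158579-45158828, plus strand), with E-boxes in capitals.
Map1lc3b: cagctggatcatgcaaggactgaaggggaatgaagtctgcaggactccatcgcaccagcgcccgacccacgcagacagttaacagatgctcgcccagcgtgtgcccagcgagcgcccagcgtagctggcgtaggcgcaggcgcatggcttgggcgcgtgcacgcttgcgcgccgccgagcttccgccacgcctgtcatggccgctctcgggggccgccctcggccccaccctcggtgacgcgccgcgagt
Sqstm1: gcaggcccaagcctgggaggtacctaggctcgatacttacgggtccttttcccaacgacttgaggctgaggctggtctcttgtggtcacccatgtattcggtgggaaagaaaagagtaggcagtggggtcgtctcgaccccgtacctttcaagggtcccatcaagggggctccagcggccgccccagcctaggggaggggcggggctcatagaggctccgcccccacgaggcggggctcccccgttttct
Atg3: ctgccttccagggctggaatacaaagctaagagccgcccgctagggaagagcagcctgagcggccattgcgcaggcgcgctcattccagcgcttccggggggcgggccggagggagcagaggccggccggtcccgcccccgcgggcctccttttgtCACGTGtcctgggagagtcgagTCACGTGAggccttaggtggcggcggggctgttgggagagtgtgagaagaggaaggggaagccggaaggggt
The Map1lc3b and Sqstm1 stretches hold none of the motifs searched, whereas Atg3, which differed by -0.065, holds an E-box and its longer form.

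Some members were read through probe sets that may not lie at the gene itself. Probe set identifiers run in genome order: 21084 of 21766 named probe sets (96.9%) belong to genes on the chromosome of most of the 10 nearest named identifiers. For 33 members the probe set used lay among identifiers of the gene's own chromosome. The probe sets with the highest mean for Atg4a, Gabarapl2, Bnip3 and Bnip3l lay among identifiers of chromosomes 3, 5, 14 and 12, while these genes lie on chromosomes X, 8, 7 and 14. Near-identical copies elsewhere could share signal with these genes, so their values are uncertain. Read through the other probe set, among identifiers of the gene's own chromosome, the difference was -0.071 for Atg4a, 0.16 for Gabarapl2, -0.076 for Bnip3 and -0.027 for Bnip3l. For Gabarapl2 this probe set read 5.55 ± 0.55 (SD, n = 5) in dtg and 5.39 ± 0.22 in stg, where the one used had SDs of 0.12 and 0.19. Map1lc3b was read at its own locus, and its other probe set, among identifiers of chromosome 14, differed by 0.12. Both probe sets of Atg2b lay among identifiers of its own chromosome. The one used differed by 0.034 and the other by 0.096.

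Genes of the wider pathway were described from 2 further lists. Of 28 other autophagy genes measured, 17 were higher and 11 lower, beside 48.1% of all genes higher. Their median was 0.015, and 0 passed over all genes. At an unadjusted p below 0.05, 1 was higher and 2 lower, against 7.58% of all genes in either direction. Retreg1, a receptor for autophagy of the endoplasmic reticulum, had the smallest p, and its values were 5.43, 5.16, 5.17, 5.08 and 5.46 in dtg embryos and 4.93, 4.86, 4.63, 4.91 and 4.73 in stg embryos. All 5 dtg embryos exceeded every control. Retreg1 was the only 1 of the 28 genes whose groups did not overlap, against 1.6% of all genes. Its group means, 5.26 in dtg and 4.81 in stg, lay below the array medians of 5.36 to 5.39. The Retreg1 difference was 0.45 ± 0.089 (SE; limma adjusted p = 0.113; exact permutation p = 0.00794, the smallest possible here). Fundc1, a mitophagy receptor gene, differed by -0.19 ± 0.072 (limma adjusted p = 0.561). Tfec, a relative of Tfeb, differed by -0.17 ± 0.062 (limma adjusted p = 0.538), at group means of 3.52 and 3.69 that lie below the mean lower quartile of the arrays, 3.91.

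Of 38 measured lysosome and proton pump genes, 30 were higher and 8 lower, beside 48.1% of all genes higher. Their median was 0.052, near that of the autophagy members. Ctsf, which encodes a lysosomal cysteine protease, read higher in dtg by 0.39 ± 0.062 (SE, limma adjusted p = 0.0425). It was the only 1 of the 38 to pass over all genes, against 0.105% of all genes. All 5 dtg embryos lay at 6.31 to 6.57 and all controls at 5.97 to 6.13. In 2 of the 38 genes, Ctsf among them, the groups did not overlap, against 1.6% of all genes. With the thalamus and diencephalon mean as a covariate 0 of 19938 genes passed, so Ctsf did not pass in that fit. That mean was itself above every control in 3 dtg embryos, so the fit cannot fully separate it from group. Its part in the Ctsf difference was not tested. Ctsd, the main aspartic protease of lysosomes, differed by 0.28 ± 0.076 (limma adjusted p = 0.324), and Npc1, which exports cholesterol from lysosomes, by 0.18 ± 0.062 (limma adjusted p = 0.497). At an unadjusted p below 0.05 there were 3 of 38, all higher, against 7.58% of all genes in either direction and 4.1% higher in dtg. A count this near the background is not a result about the list.

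Fits with marker means as covariates changed the differences unevenly. The pan-neuronal mean was 7.45 in control embryo 5 and at least 8.44 in every other embryo, so a fit with it leans on that embryo. With it as a covariate 23 of 37 members and 47.2% of all genes were higher, and the member median was 0.014. In that fit 5 of 37 members had an unadjusted p below 0.05, against 8.01% of all genes. Wipi1, Lamp2, Wipi2 and Sqstm1 were higher among these, and Ulk1 lower at -0.15. Map1lc3b read 0.12 in that fit, with an interval of -0.0042 to 0.25. With the thalamus and diencephalon mean the median was 0.018 and 0 members had an unadjusted p below 0.05, against 3.17% of all genes, with Map1lc3b at 0.13 and Sqstm1 at 0.11. That mean was itself above every control in 3 dtg embryos, and the intervals of Map1lc3b and Sqstm1 widened to -0.079 to 0.34 and -0.054 to 0.28. In no fit did a member pass over all genes.

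**Figure D4:**
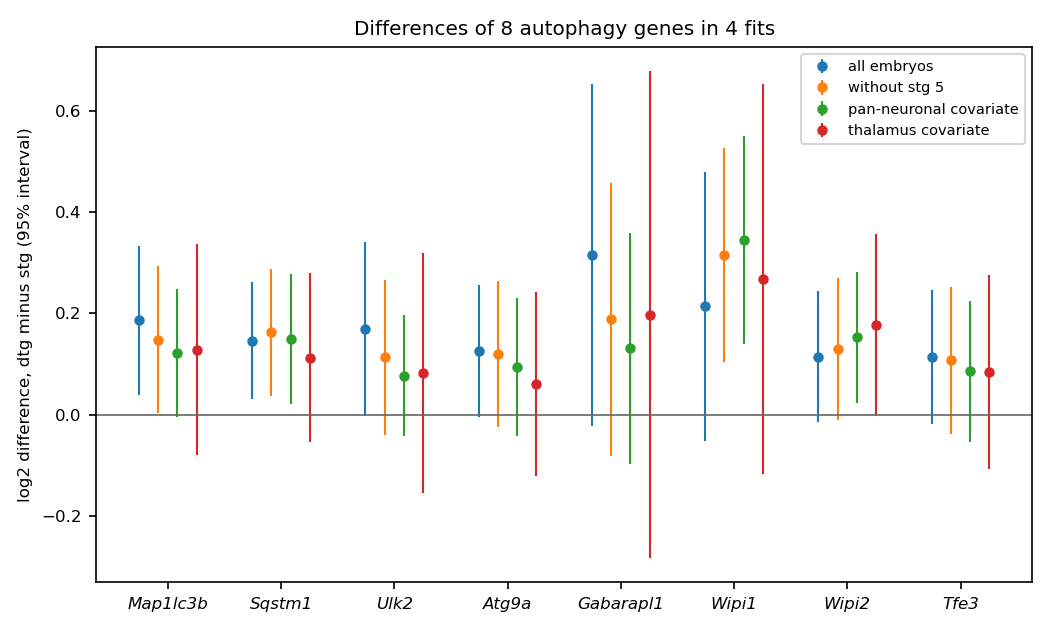
The log2 difference between dtg and stg forebrains (y axis) with its 95% interval from limma is plotted for 8 autophagy genes (x axis) with all embryos, without control embryo 5, and with each marker mean as a covariate. Sqstm1 lies between 0.11 and 0.16 in these 4 fits, while Gabarapl1 runs from 0.13 to 0.32 and Wipi1 from 0.21 to 0.34.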

How the data were processed

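Per the submitters' processing notes, the authors processed the arrays in Affymetrix Expression Console. The table they deposited gives log2 intensities of 35556 probe sets on 10 arrays. The version, algorithm and settings are not given in the sources used here. The values were used as they stand. The platform's gene table ties 21789 probe sets to 1 symbol, 1621 to more than 1 and leaves 12146 unnamed here; symbols were updated by gene identifier with RefSeq (GRCm38.p6).

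Groups were taken from the titles and compared with limma 3.58.1 in R 4.3.3 (group only, empirical Bayes, two-sided, Benjamini-Hochberg over 19938 genes, threshold 0.05), beside exact permutation tests over 252 assignments of embryos. The number of arrays limits the precision. On simulated data for this comparison (19938 genes, 200 changed, 5 runs) the fit recovered 97.2% of changes of 1 and 77.2% of changes of 0.5 on the log2 scale. There were 50 false calls over the 5 runs. The simulated noise was independent between genes, without an array that deviates as control embryo 5 does. More genes were changed than the 21 that passed here, which eases the adjusted threshold. These shares may therefore be too high for the real arrays. All 37 member differences were smaller than 0.5.

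Members and lists were chosen with earlier results of these data known. Given embryo by embryo are, by rule, members with an unadjusted p below 0.05 and the Atg8 genes; Ulk2, Atg9a, Wipi1, Wipi2 and Tfe3 were added after their values were seen. From each pathway list, genes past the threshold and the 3 with the smallest p are named. Other settings tried were fits with the replicate block, without each embryo in turn, with array weights, with trend and robust variances, after quantile normalization or median centring, without genes under the 40th percentile of gene means, on the mean of a gene's probe sets, with a pan-neuronal or thalamus covariate, and at a threshold of 0.1. Reading members through the probe set of their own chromosome was added after the data were seen.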

Additional observations from a re-analysis of the deposited data

Results flagged for a closer look

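Of 74 sets of 5 values (37 genes in each group), 6 held an embryo far from the other 4 of its group by Dixon's ratio, the gap to the nearest value over the whole range, at a critical value of 0.71. Chance flags about 1 in 20. Sqstm1 in dtg embryo 4 was 8.46, below the other dtg embryos at 8.61 to 8.65 (ratio 0.799). Bnip3l was 9.58 in dtg embryo 3, against 9.64 in the others after rounding (ratio 0.871), and 9.77 in control embryo 5, against 9.63 to 9.65 (ratio 0.854). Lamp1 in dtg embryo 3 was 8.73, against 8.87 to 8.90 (ratio 0.833). Dtg embryo 1 was highest in Atg2a at 6.50, against 6.27 to 6.30 (ratio 0.852), and lowest in Atg4a at 6.41, against 6.55 to 6.60 (ratio 0.712).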

How the results depend on the processing

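The count of 0 members past the adjusted threshold held in all fits run, also at a threshold of 0.1, and Map1lc3b, Sqstm1, Ulk2, Atg9a, Gabarapl1, Wipi1, Wipi2 and Tfe3 kept their sign in all of them. The labels do not say that replicate numbers pair embryos. Same-numbered embryos correlated in their deviations at -0.246 to 0.238, and 1 of 10 correlated best with its own number. With the replicate number as a block, genes past the threshold went from 21 to 2 over all genes, and 0 of 37 members passed. Each number occurs once per group, so the block leaves every difference as it was (28 members higher, median 0.046). Over fits without 1 embryo, the median ran from 0.019 (without control embryo 5) to 0.068, and members at an unadjusted p below 0.05 from 2 to 5. There were 4 without dtg embryo 2, dtg embryo 4, control embryo 1 or control embryo 5, against 7.81%, 9.53%, 7.24% and 6.83% of all genes, and 5 without control embryo 4, against 8.3%. Members whose groups did not overlap ran from 0 to 2 (Sqstm1 and Atg9a without dtg embryo 4, Wipi1 without control embryo 5). The share of all genes was not counted in those fits. Groups with an embryo fewer separate more readily by chance, so the 1.6% over all embryos does not apply. Members at an unadjusted p below 0.05 were 4 with quantile normalization, 5 with the pan-neuronal covariate and 0 with the thalamus covariate, against 7.81%, 8.01% and 3.17% of all genes. The causes were not tested.

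Sign changes touched 19 members, none of which passed the threshold. Median centring lowers every gene alike, so its sign changes are those of members nearest 0: -0.0041 for Atg2a, -0.0048 for Atg4a, -0.0062 for Atg5, -0.0024 for Becn1 and -0.0063 for Tfeb. With quantile normalization they were 0.0037 for Bnip3l and 0.0095 for Gabarap. Atg4a was -0.031 as the mean of its probe sets and -0.071 at its own chromosome. With the pan-neuronal covariate they were 0.0044 for Atg10, -0.038 for Atg13, -0.010 for Atg16l1, -0.011 for Atg2a, -0.018 for Atg2b, -0.022 for Becn1, 0.021 for Bnip3, -0.028 for Map1lc3a and -0.021 for Nbr1. With the thalamus covariate they were -0.013 for Atg12, -0.019 for Atg2a, -0.0029 for Atg2b, -0.059 for Becn1, 0.013 for Bnip3, 0.0063 for Bnip3l, -0.19 for Map1lc3a, -0.038 for Tfeb and -0.035 for Uvrag. Without 1 embryo the ranges that crossed 0 were -0.066 to 0.017 for Atg10, -0.084 to 0.0090 for Atg14, -0.00061 to 0.056 for Atg16l1, -0.033 to 0.024 for Atg2a, -0.0021 to 0.059 for Atg2b, -0.054 to 0.046 for Atg4a, -0.023 to 0.042 for Atg5, -0.096 to 0.0029 for Atg7, -0.018 to 0.052 for Becn1, -0.12 to 0.0088 for Bnip3, -0.038 to 0.040 for Tfeb and -0.12 to 0.0068 for Ulk1.

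With 5 embryos per group, a difference under about the half-width of its interval could not reach an unadjusted limma p below 0.05. Passing over all genes takes a larger difference. Those of Map1lc3b and Sqstm1 exceeded their half-widths, which restates their unadjusted limma p below 0.05. The limma adjusted p was 0.531 for each. Half-widths differed between genes and set no common limit of detection.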
